A study of Drosophila melanogaster with 6 samples.

Results

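DNA copy number in larval salivary glands of H3K9R mutants was compared directly with that of H4K16R mutants. The windows were of 10 kb of the dm6 genome, at domains that the authors called under-replicated in the wild type control. All windows of a pericentric list and of a chromosome arm list were taken, each chromosome and start counted once. This gave 2189 different windows (1381 pericentric and 808 on arms), of which 2177 had reads in both genotypes and so a ratio. The 12 windows without a ratio were pericentric and at 0 in both mutants. The comparison uses 4 of the 6 samples of the study, and the other samples, the control HWT, are given beside it as the background measured the same way.

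All larvae were female, newly wandering in the third instar and of the genotype ΔHisC, UAS-2xEYFP / ΔHisC, twi-GAL4, so that the cluster of replication-dependent histone genes was deleted on both homologues in every group. A histone transgene array stood in for it. In HWT its histones were unmodified, in H3K9R lysine 9 of H3 was replaced by arginine, and in H4K16R the same was done to lysine 16 of H4. H3 and H4 made from genes outside the cluster were not altered. Each genotype had 2 libraries, each from 20 ng of DNA of 25 pooled glands, so each value is a mean over many nuclei and cannot tell a change in every nucleus from a larger change in some.

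The larval salivary gland grows through polyploidy. Its cells repeat S phase but skip mitosis, and the copies stay aligned as polytene chromosomes. Late replicating DNA, above all the pericentric heterochromatin and some regions of the arms, is copied less than the rest and is said to be under-replicated. Methylated lysine 9 of H3 marks heterochromatin and is bound by HP1, whereas acetylated lysine 16 of H4 marks euchromatin and is best known from the dosage-compensated male X chromosome. Because both mutants carry a lysine-to-arginine histone on a transgene array in place of the same deleted cluster, H4K16R is a mutant control for H3K9R, and the question was whether under-replicated DNA differs between them.

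The coding sequences around the mutated lysines are shown from the reference genome (dm6), since these codons are what the mutant arrays change. The lysine codon is in capitals, and residues are counted after the initiator methionine. The first 60 coding bases were identical in 23 of 23 annotated His3 copies and in 22 of 22 His4 copies. The copies shown lie at chr2L:21420186-21420245 on the plus strand and at chr2L:21419828-21419887 on the minus strand, and the codons for lysine 9 and lysine 16 take bases 28 to 30 and 49 to 51.
His3:CG33803: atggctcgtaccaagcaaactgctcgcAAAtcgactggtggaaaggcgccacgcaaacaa
His4:CG33909: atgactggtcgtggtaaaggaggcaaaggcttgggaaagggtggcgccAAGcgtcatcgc

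The windows differ in how much of their sequence is unique, which bears on how many reads can be placed in them. A window's unique share is that of its 100-base sequences with a single match in the assembly. To show this, 150 bases (plus strand, dm6) are given from 4 windows on which the results below turn, with capitals for bases inside a 100-base sequence that occurs once in the assembly. They come from a pericentric window among the highest ratios (chr3L:25585201-25585350), the arm window with the highest ratio (chrX:54853-55002), the arm window of complete transposon sequence with the highest ratio (chr2L:20183367-20183516) and the arm window with the lowest ratio (chr2L:17114926-17115075).
Pericentric, in an intron of lovit: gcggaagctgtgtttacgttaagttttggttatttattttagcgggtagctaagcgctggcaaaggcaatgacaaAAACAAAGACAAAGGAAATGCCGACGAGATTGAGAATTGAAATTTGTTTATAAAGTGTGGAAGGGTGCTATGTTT
Start of X: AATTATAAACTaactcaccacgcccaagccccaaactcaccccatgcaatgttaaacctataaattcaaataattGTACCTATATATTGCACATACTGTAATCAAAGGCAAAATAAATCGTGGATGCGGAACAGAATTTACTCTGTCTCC
Transposon window of 2L: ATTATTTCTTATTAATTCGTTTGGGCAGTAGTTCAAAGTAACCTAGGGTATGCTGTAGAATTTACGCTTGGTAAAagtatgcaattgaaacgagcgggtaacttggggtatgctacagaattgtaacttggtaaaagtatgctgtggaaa
Arm window of 2L, lowest ratio: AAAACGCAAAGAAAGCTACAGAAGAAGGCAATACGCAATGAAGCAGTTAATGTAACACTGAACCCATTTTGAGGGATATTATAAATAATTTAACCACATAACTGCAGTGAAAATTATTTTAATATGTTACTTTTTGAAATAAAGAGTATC

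The deposited values are averages of both libraries of a genotype in RPM, read counts scaled to the reads of the library. The reads of single libraries were derived from the averages, and the libraries of a genotype are called deeper and shallower because an average does not tell which replicate is which. Totals were 22341893 and 18681787 reads in H3K9R, 26685461 and 23148290 in H4K16R, and 25799522 and 25408559 in HWT. At windows with at least 5 RPM the median absolute log2 difference between libraries of a genotype was 0.07 in each of the 3 genotypes.

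Pericentric DNA was present at a higher copy number in H3K9R glands than in H4K16R glands. The median RPM of a pericentric window was 41.8 and 41.0 in the deeper and shallower H3K9R libraries, 15.9 and 15.6 in H4K16R, and 15.5 and 15.2 in HWT. The H3K9R libraries stood apart from the other 4, and the H4K16R libraries lay next to HWT. The median log2 ratio of H3K9R to H4K16R was 1.11 over the 1369 windows with a ratio (quartiles 0.53 and 1.76), a 2.17-fold difference, and it lay between 1.10 and 1.12 for the 4 possible pairs of a single H3K9R with a single H4K16R library. An exact two-sided permutation test of the library medians, 2 against 2, gave p = 0.333, the smallest p this design allows. By share of reads, the pericentric windows took 6.08% (95% Wilson interval 6.07 to 6.09%) and 6.01% (6.00 to 6.02%) in H3K9R, and 2.99% (2.98 to 3.00%) and 2.98% (2.97 to 2.99%) in H4K16R. These intervals cover counting error only.

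**Figure D1:**
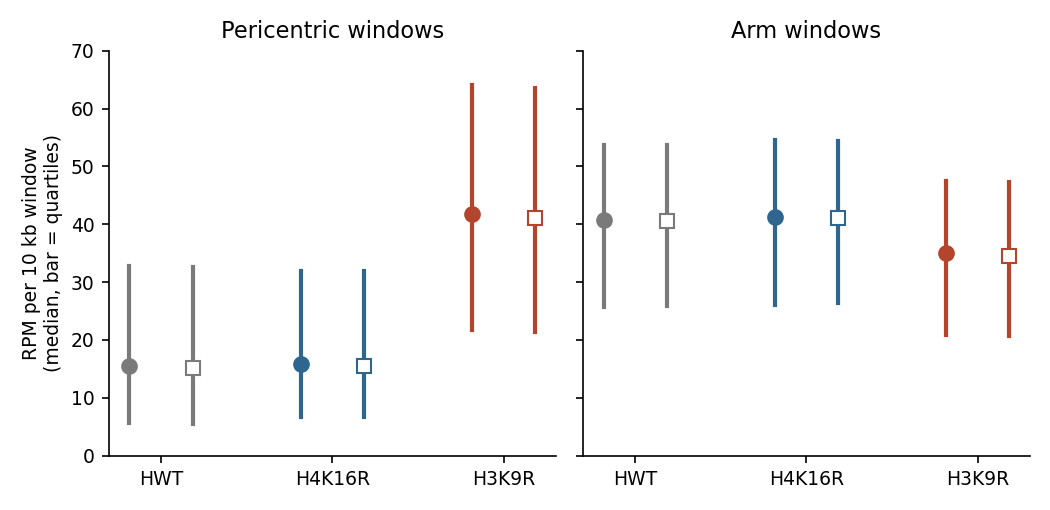
RPM per 10 kb window in each derived library for pericentric windows (left) and arm windows (right), as the median (point; filled for the deeper and open for the shallower library of a genotype) with a bar from the lower to the upper quartile over windows. The H3K9R medians of 41.8 and 41.0 RPM stand above the other 4 libraries in pericentric windows, and those of 35.0 and 34.6 RPM stand below them on the arms.

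Windows were also tested one by one with limma on log2(RPM + 1), with Benjamini-Hochberg adjustment over all 2177 windows and a cutoff of 0.001 on the adjusted p. These p-values rest on the spread between the 2 libraries of a genotype, which the study calls biological replicates. That spread was taken over all 3 genotypes, HWT among them, and drawn towards a value shared by all windows. In this test 1031 pericentric windows were higher in H3K9R (75.3%, beside 48.2% of all windows tested) and 5 were lower (0.37%, beside 7.58%). With the mutant libraries alone these counts were 1011 and 3. Both H3K9R libraries lay above both H4K16R libraries in 1240 pericentric windows (90.6%, beside 59.7% of all windows) and below both in 51 (3.73%, beside 30.5%). The averaged RPM was at least 2-fold higher in 746 (beside 34.6% of all windows with a ratio) and at most 0.5-fold in 4 (beside 0.23%). Most of the pericentric list thus differed between the mutants by more than its libraries did, and almost all in the same direction.

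The ratio to H4K16R was close in size to the ratio to HWT. Over pericentric windows the median log2 ratio of H3K9R to HWT was 1.21 and that of H4K16R to HWT was 0.06, and these share the HWT libraries. The control made most difference on 3R and X, where H4K16R itself stood 0.22 and 0.21 above HWT. There the H3K9R medians were 0.93 on 3R and 1.22 on X against H4K16R, and 1.28 and 1.45 against HWT.

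The pericentric ratio was above 0 on every chromosome that the list covers. Its median was 0.68 on 2L (89 windows), 1.27 on 2R (367 windows), 1.10 on 3L (371 windows with a ratio) and 0.77 on chromosome 4 (8 windows). By limma, 310 of the 2R windows, 313 of those of 3L, 247 of 392 on 3R, 101 of those of X, 54 on 2L and 6 on chromosome 4 were higher in H3K9R. Of the 5 windows lower in H3K9R, 4 were on 3L and 1 on 3R.

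**Figure D2:**
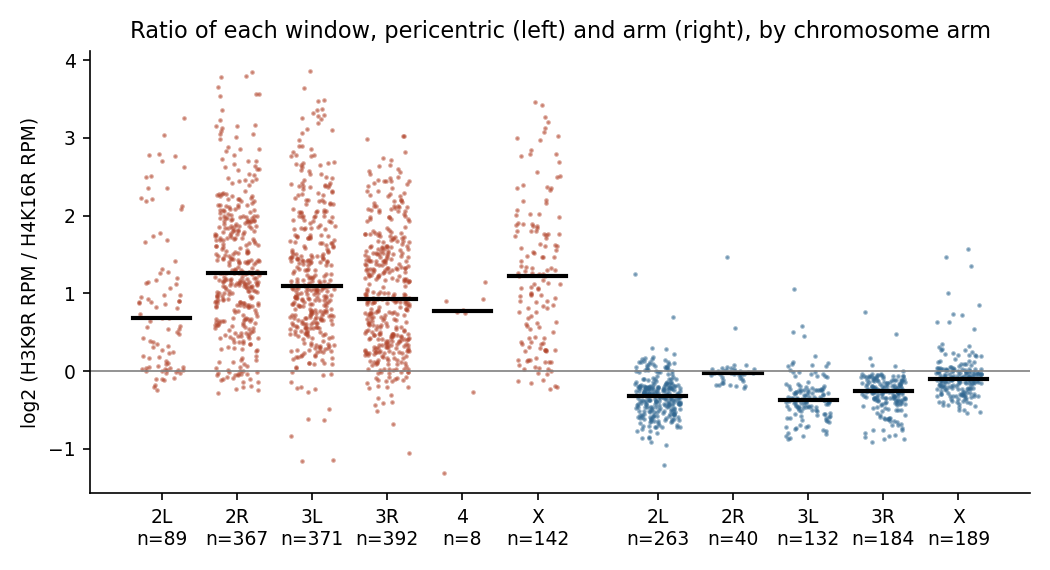
Each point is a 10 kb window, with the log2 ratio of averaged RPM in H3K9R to H4K16R on the vertical axis and the chromosome arm on the horizontal axis, pericentric windows in red and arm windows in blue. Black bars are medians and n is the number of windows with a ratio. Pericentric medians run from 0.68 (2L) to 1.27 (2R), arm medians from -0.37 (3L) to -0.03 (2R).

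The pericentric difference was smaller where a window was less under-replicated in HWT, whose libraries do not enter the ratio. Against H4K16R it was not largest, however, in the quartile with the least DNA. In that quartile (up to 5.68 RPM in HWT) the median RPM was 9.56 in H3K9R and 3.75 in H4K16R, with a log2 ratio of 1.48. There 236 of 334 windows were higher by limma and 5 were lower. In the second quartile (5.70 to 15.2 RPM in HWT) it was 32.9 in H3K9R and 10.6 in H4K16R, a log2 ratio of 1.64, and 310 of 345 windows were higher by limma. The ratio then fell to 1.14 in the third quartile and to 0.48 in the highest (32.8 to 109.7 RPM in HWT), where H3K9R had 69.3 RPM and H4K16R 44.7 RPM. The H3K9R level therefore rose by a smaller factor over the upper quartiles (32.9, 52.5 and 69.3 RPM) than the H4K16R level (10.6, 22.95 and 44.7 RPM). H4K16R itself stood above HWT in the lowest quartile, with a median log2 ratio of 0.49, against 0.11, 0.0078 and -0.04 in the quartiles above it. For H3K9R to HWT the median was largest in the lowest quartile, with 1.97, 1.79, 1.15 and 0.47 from lowest to highest. HWT both sets these quartiles and enters those ratios.

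Windows that touch were merged into stretches, 36 pericentric and 49 on arms, to follow the ratio from the ends of an under-replicated stretch inwards. In pericentric stretches the log2 ratio was 0.18 at the end windows, 0.67 at 1 to 2 windows inwards, 0.96 at 3 to 4, 1.21 at 5 to 9 and 1.28 at 10 or more. The H4K16R level fell over these steps from 47.9 through 38.9, 35.9 and 25.8 to 10.6 RPM. In H3K9R it was 64.4, 61.4, 65.8 and 59.9 RPM and then 32.2 RPM. The level in H3K9R was thus near flat over the outer windows, to 9 from an end, where that in H4K16R fell. The windows at 10 or more come from long stretches of unlike level. The H3K9R median was 18.6 RPM in 3R 1 to 3570000 (357 windows) and 66.8 RPM in 3L 25150001 to 25950000 (80 windows). The lower median of this bin was not separated from which stretches fill it. Since short stretches have no inner windows, the same was computed for the 16 pericentric stretches of at least 20 windows, and the ratio again rose, from 0.22 at the ends to 0.62, 0.99, 1.19 and 1.28.

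**Figure D3:**
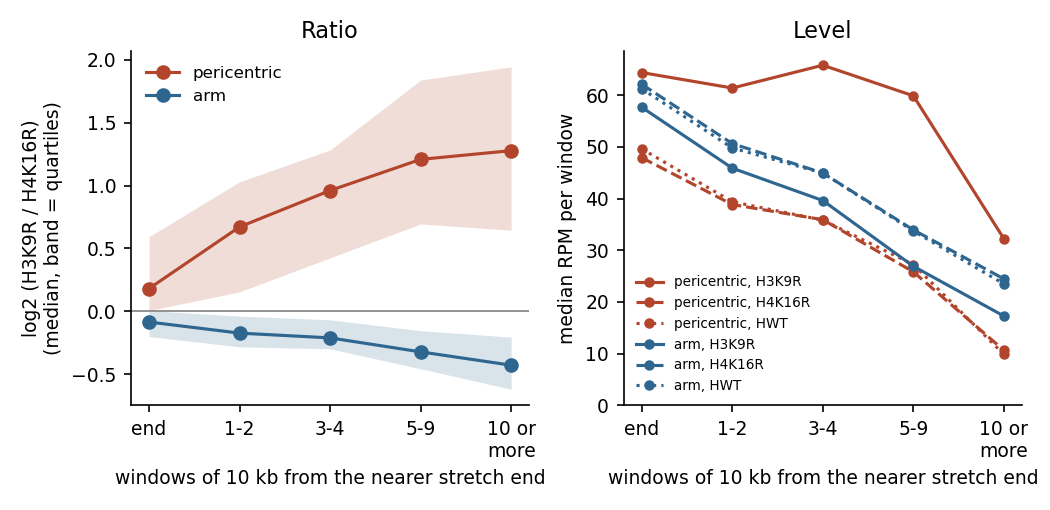
Median log2 ratio of H3K9R to H4K16R (left, band from lower to upper quartile over windows) and median RPM (right, H3K9R solid, H4K16R dashed, HWT dotted) against the number of 10 kb windows to the nearer end of a stretch, for pericentric (red) and arm (blue) windows. The pericentric ratio goes from 0.18 at the ends to 1.28 inside and the arm ratio from -0.08 to -0.43.

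Sequence content moved with the ratio. In the 319 pericentric windows with at least 80% unique sequence, the log2 ratio was 1.45, with 48.4 RPM in H3K9R and 12.02 RPM in H4K16R. It was 1.21 where 50 to 80% were unique, 0.97 at 20 to 50% and 0.78 below 20%. By annotated transposons, it was 1.26 in the 876 windows with none and 0.80 in the 190 windows with over 50%, and of the 17 windows of complete transposon sequence all 17 were higher by limma (median 0.92). The part that read placement plays in these differences was not tested.

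Of the 36 pericentric stretches, 29 had a median above 0, 14 a median of at least 2-fold, and in 23 most windows were higher by limma. The highest median, 1.84, was that of 3L 25150001 to 25950000, where 79 of 80 windows were higher. There the median window had 66.0 and 66.1 RPM in H3K9R against 17.2 and 19.2 RPM in H4K16R. The longest stretch, 3R 1 to 3570000 with 357 windows, had a median of 0.94, and 226 of its windows were higher and 1 was lower. Its H3K9R medians were 18.9 and 18.3 RPM and its H4K16R medians 6.93 and 6.96 RPM, so its DNA stayed scarce in both mutants.

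The pericentric list was not uniform. In 10 stretches, the longest of 50 kb, no window passed the test. A median below 0 was found in 7 stretches, of which 5 were above 0 with the scaling described for the arms. On X, the stretch 22570001 to 22810000 had a median of 0.12 with 1 of 24 windows higher, although its median window is fully unique. Its H3K9R medians were 43.4 and 41.7 RPM and its H4K16R medians 37.7 and 37.9 RPM. Both lay below the HWT medians of 44.0 and 45.4 RPM, so the direction turned against HWT, with -0.11 for H3K9R to HWT and -0.24 for H4K16R to HWT. The stretch holds Cda4, a chitin deacetylase gene, and lies between stretches of X with medians of 1.68 (21700001 to 22440000, 57 of 74 windows higher) and 1.24 (23110001 to 23542271, 39 of 44 windows higher). The lowest stretch median of at least 3 windows was -0.03, at 2R 4040001 to 4090000, and with that scaling it was 0.09.

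**Figure D4:**
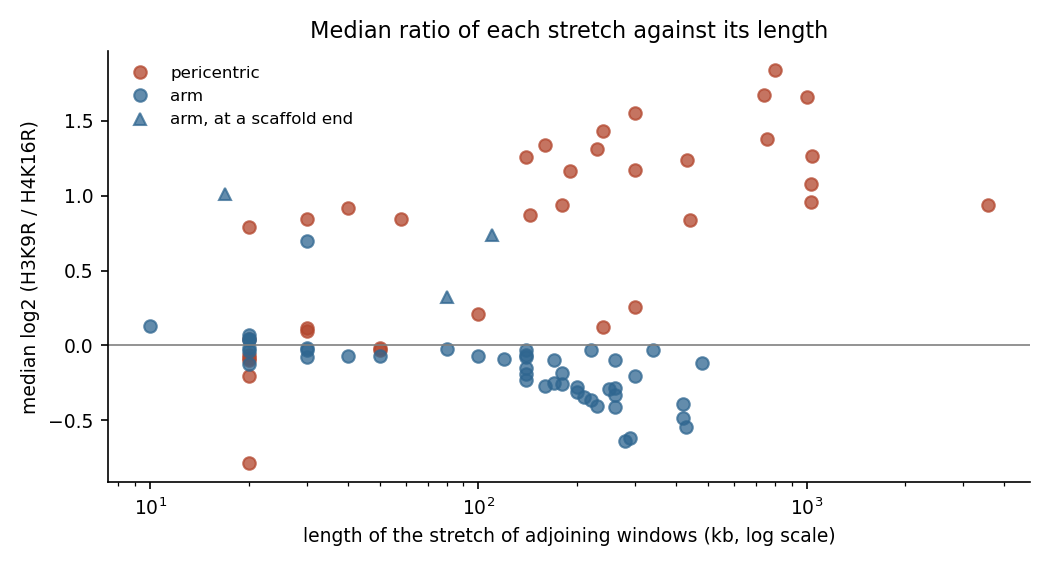
Median log2 ratio of H3K9R to H4K16R of each stretch of adjoining windows against its length in kb (log scale), pericentric in red and arm in blue, with triangles for arm stretches at a scaffold end. Among pericentric stretches 29 of 36 lie above 0, and among arm stretches 8 of 49, or 25 of 49 with every log2 ratio raised by 0.12 (the scaling described for the arms). In 27 of the 49 arm stretches no window passed the test.

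Genes within pericentric heterochromatin were looked up from a list of 32, and 11 of them overlapped listed windows. Among their 379 windows the test called 289 as higher in H3K9R and 0 as lower (all windows tested, 48.2% and 7.58%), with a median log2 ratio of 1.41. The share of higher windows among all pericentric windows, 75.3%, was close to this, so the count says nothing particular to these genes. In 7 of the 11 genes most windows were higher. The greatest difference was over dpr21 (FBgn0260995, 2R 3066499 to 3191011), an immunoglobulin-domain cell surface protein of the family that pairs neurons with their partners. Its 14 windows averaged 53.1 and 53.8 RPM in H3K9R, 6.29 and 6.05 RPM in H4K16R, and 5.37 and 5.84 RPM in HWT. All 14 were higher, with a median log2 ratio of 3.45 and a range of 1.84 to 3.85. Among all windows with at least 5 RPM in H4K16R, the 4 highest ratios lay in introns of dpr21. At the highest, 2R 3100001 to 3110000, RPM was 69.7 and 72.0 in H3K9R against 5.77 and 4.49 in H4K16R, a 13.8-fold ratio (limma log2 3.56, SE 0.16, adjusted p = 3.75e-07). The other 3 had ratios of 11.6-fold to 11.8-fold. Fitted values are on the log2(RPM + 1) scale, which understates the ratio where RPM is low.

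The fifth of the highest windows, 3L 25580001 to 25590000, lay in an intron of lovit, a gene for a vesicular transporter of photoreceptor neurons. It had 63.2 and 61.5 RPM in H3K9R and 5.096 and 6.998 RPM in H4K16R, a 10.3-fold ratio. This is the window whose sequence is shown above, and only 24.8% of it is unique. Over the 45 windows of lovit, H3K9R averaged 63.0 and 62.0 RPM and H4K16R 13.0 and 13.4 RPM. All 45 were higher, with a median log2 ratio of 2.42. In nvd, which encodes the oxygenase that acts on cholesterol early in ecdysone synthesis, 9 of 9 windows were higher, at 59.4 and 58.7 RPM against 10.6 and 10.3 RPM (median 2.68). Snap25, a SNARE protein of synaptic vesicle fusion, had 23 of 23 windows higher, at 72.7 and 72.8 RPM against 26.5 and 26.7 RPM (median 1.48). FASN3, a fatty acid synthase, had 2 of 2 (median 1.46).

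Other pericentric genes differed less or only in part. Myo81F, a myosin gene that spans 3R 567076 to 2532932, had 129 of 198 windows higher and none lower, at 20.0 and 19.9 RPM against 9.81 and 9.85 RPM (median 1.01, range -0.34 to 2.75). Pzl, a Piezo-like channel gene, had 63 of 72 windows higher (median 1.59). Of Parp1, the poly(ADP-ribose) polymerase, 4 of 11 windows were higher, at 67.8 and 67.1 RPM against 57.1 and 56.2 RPM (median 0.18). No window of Gprk1, Dbp80 or Mitf passed the test. Mitf, a transcription factor gene on chromosome 4, had 6.33 and 6.24 RPM against 8.02 and 7.93 RPM over 2 windows (median -0.79), of which 9.83% is unique. These windows had log2 ratios of -1.31 and -0.26. The lower ratio came from a window with less than 5 RPM in H4K16R. The other window averaged 11.9 RPM in H3K9R and 14.3 RPM in H4K16R.

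From the lists of other families, DIP-lambda, whose protein is of the family that binds dpr proteins, had 38 of 39 windows higher, at 46.9 and 46.0 RPM against 16.7 and 17.1 RPM (median 1.94). Of the 32 dpr and DIP genes 4 had windows. Those of dpr11 and dpr8 lie on arms, with 0 of 8 and 0 of 15 windows higher and 0 and 1 lower. Among 179 chemoreceptor genes 9 had windows, and all 12 windows higher were of Ir41a, an ionotropic odorant receptor gene in pericentric 2R (74.4 and 74.2 RPM against 36.1 and 35.9 RPM, median 1.09), beside 310 of the 367 pericentric windows of 2R and 48.2% of all windows. The 3 windows lower were arm windows at the gustatory receptor genes Gr36a, Gr36b and Gr36c and at the odorant receptor gene Or35a (all windows, 7.58% lower). None of 10 nicotinic acetylcholine receptor genes had a window. Over all 70 protein-coding genes in pericentric windows, 58 had a median above 0, and in 26 every window was higher. Beside this, the ratio was above 0 in 93.8% of pericentric windows and 64.4% of all windows, so the count says nothing particular to genes. Of these genes, 21 lie in 1 stretch, X 21700001 to 22440000, whose median window is 14.5% unique.

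The 5 pericentric windows that were lower in H3K9R held little DNA in either mutant. They were 3L 24620001 to 24650000, 3L 26940001 to 26950000 and 3R 270001 to 280000, and all but 3L 26940001 were singled out after their values were seen. In 3L 24630001 to 24640000, RPM was 2.10 and 2.14 in H3K9R and 4.61 and 4.75 in H4K16R, with 2.58 in the HWT average. In 3R 270001 to 280000 it was 1.61 and 1.55 against 3.22 and 3.33, with 1.70 in HWT. In each of the 5 the H4K16R average was above the HWT average, and 18.4 to 46.4% of the window was unique. The lowest ratio with at least 5 RPM in H4K16R was 0.645, at 3L 26940001 (4.25 and 3.75 against 6.52 and 5.88 RPM, limma adjusted p = 0.000709). That call was lost without any 1 of the 4 libraries of the mutants, with a highest adjusted p of 0.0081, and 5 became 3 without either H3K9R library or the deeper H4K16R library.

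On chromosome arms the ratio ran the other way and was small. The median RPM of an arm window was 35.0 and 34.6 in H3K9R, 41.2 and 41.1 in H4K16R, and 40.7 and 40.6 in HWT. The median log2 ratio of H3K9R to H4K16R was -0.24 (quartiles -0.41 and -0.08, pairs of libraries -0.26 to -0.23), and the median over arm stretches was -0.10. The ratio was below 0 in all but 118 of the 808 windows. Both H3K9R libraries lay below both H4K16R libraries in 613 windows (75.9%, beside 30.5% of all windows) and above both in 60. The exact permutation p of the library medians was again 0.333, the smallest possible. By limma 160 arm windows were lower in H3K9R (19.8%, beside 7.58% of all windows) and 18 were higher (2.23%, beside 48.2%). The count of lower windows was 59 without the shallower H3K9R library, 65 without the deeper one, 67 without the deeper H4K16R library and 76 without the shallower one. It was 348 with a variance trend in limma and 121 with the mutant libraries alone.

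RPM are shares of a library, so the scale bears on a difference of this size. The larger share of reads in the listed pericentric windows of H3K9R would by itself move every other window by -0.046 on the log2 scale. Reads of other heterochromatin, outside the listed windows, are not in this value. How much of the arm difference comes from the scale was not tested. A second scaling set to 0 the median log2 ratio of the 81 arm windows that were highest in HWT (its top 10%), and it raised every log2 ratio by 0.12. The arm median was then -0.13 and the pericentric median 1.23. Arm windows above 0 went from 118 to 241, arm windows lower by limma from 160 to 81, and the share of higher windows among the arm windows called went from 10.1% to 21.4%. Windows outside the under-replicated domains are not analysed here.

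By chromosome, the arm median was -0.37 on 3L (132 windows, 44 lower), -0.32 on 2L (263 windows, 66 lower), -0.26 on 3R (184 windows, 39 lower), -0.09 on X (189 windows, 11 lower) and -0.03 on 2R (40 windows, none lower). With the scaling the signs on X and 2R turned, to 0.02 and 0.09. The ratio was lowest where DNA was scarcest in HWT. It was -0.37, -0.28, -0.21 and -0.18 from the lowest to the highest quartile of HWT RPM. From the ends of arm stretches inwards it went from -0.08 at the end windows (0.03 with the scaling) through -0.17, -0.21 and -0.32 to -0.43 at 10 or more windows in, where H3K9R had 17.3 RPM and H4K16R 24.5 RPM. The inner windows of arm stretches thus differed in the direction opposite to those of pericentric stretches. In the 19 arm stretches of at least 20 windows the ratio was -0.20 at the ends and -0.43 inside.

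The windows lower in H3K9R lay mostly in unique sequence. Of the 160, 156 had at least 80% unique sequence (as did 673 of all 808 arm windows). They fell in 17 of the 49 arm stretches, with 88 of them in the 4 that held most. The lowest stretch median, -0.64, was that of 3L 15200001 to 15480000, with 23 of 28 windows lower and medians of 22.0 and 22.0 RPM in H3K9R against 34.6 and 35.7 RPM in H4K16R. It holds Toll-6 and Tollo, receptors of the Toll family, of which 2 of 8 had windows (all arm windows, 19.8% lower). Both windows of Toll-6 were lower, at 17.1 and 16.6 RPM against 25.6 and 27.4 RPM (median -0.66). Both windows of Tollo were lower too, at 33.0 and 33.0 RPM against 48.8 and 47.4 RPM (median -0.55).

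Next came the bithorax complex, the homeotic genes of the posterior body, in the stretch 3R 16670001 to 16960000 (median -0.62, 23 of 29 windows lower). Of 8 homeotic genes on the list 3 had windows, and 10 of their 15 windows were lower and none higher (median -0.48), beside 19.8% of arm windows and 7.58% of all windows lower. In abd-A all 4 windows were lower, at 16.5 and 17.7 RPM in H3K9R, 30.4 and 30.4 RPM in H4K16R, and 27.2 and 26.4 RPM in HWT (median -0.84, or -0.60 for H3K9R to HWT and 0.23 for H4K16R to HWT). Ubx had 4 of 7 windows lower, at 41.2 and 42.2 RPM against 54.4 and 53.8 RPM (median -0.41). Abd-B had 2 of 4, at 48.9 and 48.1 RPM against 64.5 and 62.1 RPM (median -0.42). In each of these gene means both H3K9R libraries lay below both H4K16R libraries. That was so in 75.9% of arm windows and 30.5% of all windows, so it is not particular to these genes. Glut3, a glucose transporter gene between Ubx and abd-A that was singled out after its values were seen, had 2 of 2 windows lower (median -0.78).

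The other stretches with most of these windows were on 2L, and over all arm windows 19.8% were lower (7.58% of all windows). In 15290001 to 15720000, 28 of 43 windows were lower (median -0.54, 38.9 and 37.8 RPM against 56.5 and 56.6 RPM), and in 17530001 to 17950000, 14 of 42 (median -0.49, 9.67 and 9.98 RPM against 16.02 and 14.23 RPM). The latter holds the N-cadherin genes CadN and CadN2. Of 10 windows of CadN2, named after its values were seen, 3 were lower, which beside the arm share says nothing particular to this gene. The stretch 3L 18180001 to 18440000, also named so, holds the cell death genes rpr, hid, grim and skl and had 12 of 26 windows lower (median -0.41). By contrast the longest arm stretch, X 20530001 to 21010000, had a median of -0.12 with 6 of 48 windows lower, and with the scaling it was -0.0024. Over all 457 protein-coding genes in arm windows, 375 had a median below 0 (254 with the scaling), and in 51 every window was lower. Of these genes, 111 are histone genes that share the 14 windows of the deleted cluster described below. The median log2 ratio of those windows was -0.07, or 0.05 with the scaling. Gene counts without them were not computed.

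The lowest ratio of an arm window with at least 5 RPM in H4K16R was 0.434, at 2L 17110001 to 17120000, the fully unique window shown above. It had 2.104 and 2.302 RPM in H3K9R, 5.92 and 4.23 RPM in H4K16R, and 3.76 and 3.19 RPM in HWT (limma log2 -0.91, SE 0.13, adjusted p = 0.000312). This was the only arm window at 0.5-fold or less (all windows, 0.23%). Its call was lost without either H3K9R library, with adjusted p of 0.0049 and 0.0032. The next, 2L 17030001, had a ratio of 0.520 and was lost without either H3K9R library or the deeper H4K16R library. The other 3 were 3R 16830001 and 3R 16810001, which overlap exons of abd-A, and 3L 15350001, with ratios of 0.533 to 0.547, and these calls held in each of the 6 other fits run for named windows.

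The 18 arm windows higher in H3K9R were of another kind. Of them 14 lay at the ends of the X, 3L and 2R scaffolds away from the centromere, 3 elsewhere were over 50% annotated transposon and 1 was neither. These 3 were among 39 arm windows with over 50% transposon, whose median log2 ratio was -0.0052 (0.11 with the scaling). Over the 21 windows at scaffold ends the median log2 ratio was 0.63, and over the 787 other arm windows it was -0.25. H4K16R itself stood above HWT at the ends, with a median log2 ratio of 0.21, against 0.016 in the other arm windows. For H3K9R to HWT the median at the ends was 0.83. Median RPM at the ends was 49.0 and 49.0 in H3K9R against 32.0 and 31.7 in H4K16R, and elsewhere 34.8 and 34.5 against 41.4 and 41.3. Chromosome ends in the fly carry telomeric retrotransposons and repeats next to them, and the X windows here were at most 39.1% unique. Annotated transposons covered a mean of 5.81% of the 11 end windows of X, 6.99% of the 8 of 3L and 0% of the 2 of 2R. Arm windows higher by limma numbered 10 without either H3K9R library and 11 without the deeper H4K16R library.

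On X, 9 of the 11 windows from 1 to 110000 were higher (median 0.73). The highest ratio of any arm window with at least 5 RPM in H4K16R was there, 2.97-fold at X 50001 to 60000, the window shown above. It had 111 and 114 RPM in H3K9R, 38.3 and 37.4 RPM in H4K16R, and 29.3 and 25.0 RPM in HWT (limma log2 1.55, SE 0.08, adjusted p = 7.54e-07). The windows at X 80001 and X 60001 followed with 2.76-fold and 2.56-fold. The last window of 2R, 25280001 to 25286936, had 184 and 181 RPM against 67.2 and 64.9 RPM, a 2.76-fold ratio.

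The start of 3L is fully unique from 40001 to 80000, and there 3 of 4 windows were higher. At 3L 60001, which overlaps an exon of Lsp1gamma, a larval serum protein gene, RPM was 73.0 and 76.0 in H3K9R, 54.7 and 50.6 in H4K16R, and 43.2 in the HWT average (log2 ratio 0.50). At 3L 1 and 3L 10001, which are 0% and 3.76% unique, the log2 ratios were 0.06 and 0.07 and neither window was called. The 3 calls at this end thus lay in fully unique sequence. At 3L 30001 a 2.07-fold ratio, among the 7 arm windows of at least 2-fold, rested on under 0.1 RPM in each library and was not called.

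**Figure D5:**
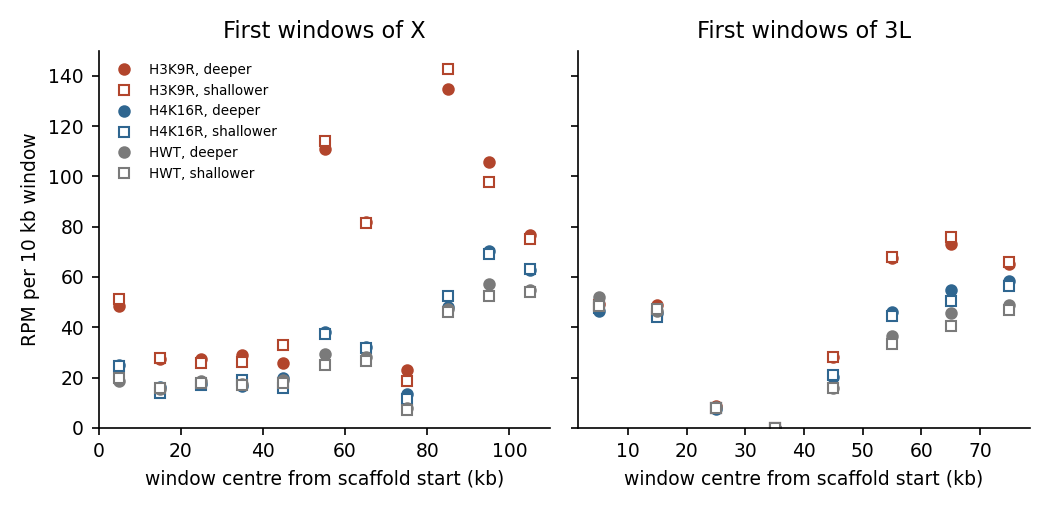
RPM of the first windows of the X (left) and 3L (right) scaffolds against the distance of the window centre from the scaffold start in kb, for each derived library (filled, deeper; open, shallower). On X both H3K9R libraries lie above the other 4 in all 11 windows, and on 3L they do so from 40 to 80 kb but not before.

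The transposon window of 2L shown above (20180001 to 20190000, 1.00% unique) had 29.8 and 25.9 RPM in H3K9R and 12.4 and 11.1 RPM in H4K16R, a 2.38-fold ratio. Its stretch of 3 windows had a median of 0.70. The histone gene cluster itself, 2L 21410001 to 21550000, with 111 annotated histone genes in 14 windows, is deleted in all 3 genotypes, and which reads there stem from the transgene array was not tested. The cluster is in the arm list and is kept in the arm counts above, although it is deleted. Its summed RPM was 317 and 293 in H3K9R, 329 and 328 in H4K16R, and 312 and 311 in HWT. No window of it passed the test (lowest adjusted p = 0.034), with a median log2 ratio of -0.07, or 0.05 with the scaling.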

How the data were processed

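Genomic DNA of 3 genotypes was sequenced as paired 100-base reads. Per the labels and the study's methods, the authors trimmed reads with Trimmomatic 0.36, aligned them to dm6 with Bowtie2 2.3.2, kept those with a MAPQ above 10 (SAMtools 1.6) and used bedtools to count reads per 10 kb window. MAPQ removes many reads of repeats, so repeated windows are measured over part of their sequence. The authors then scaled counts to RPM, and the deposited values are the mean RPM of 2 replicates. Domains were called by the authors with CNVnator in HWT (bins of 1000 bases, over 10 kb). Columns of per-sample values not used number 0.

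An average of RPM is a sum of 2 whole read numbers over library totals. A search for the totals gave whole reads for 100% of averages (tolerance 1e-08 reads), and each library's RPM was taken from it. A read is 0.0375 to 0.0535 RPM. The search and limma were tested on simulated data. limma 3.58.1 (R 4.3.3; lmFit, contrasts.fit, eBayes) was fitted to log2(RPM + 1) of 6 libraries over 2177 windows. Medians, counts and exact tests used Python 3.11.15 with numpy 2.4.6, pandas 2.3.3 and scipy 1.17.1. Of 2195 listed windows 6 were repeats and counted once. Unique sequence, transposons and genes come from the dm6 sequence and annotation in RefSeq and Ensembl.

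The named windows are the 5 highest and the 5 lowest ratios of each list with at least 5 RPM in H4K16R, together with the longest, highest and lowest stretches and the genes of fixed lists. Members and lists were chosen with earlier results of these data known. Alternatives were other pseudocounts, filters, cutoffs, units, controls and scalings, and leaving out each library.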

Additional observations from a re-analysis of the deposited data

How the results depend on the processing

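The pericentric median log2 ratio of 1.11 kept its direction throughout. It was 1.05 and 1.11 with pseudocounts of 1 and 0.1 RPM, 1.08 with at least 5 RPM in both mutants, 1.19 as a mean, 1.02 from summed RPM, 0.90 over stretches, 1.23 when scaled to the top arm windows, 1.45 with at least 80% unique sequence and 1.21 with HWT as control. The arm median of -0.24 was -0.19 from summed RPM, -0.10 over stretches, -0.13 when scaled, -0.28 without chromosome 4 and X, -0.28 with at least 80% unique sequence and -0.22 with HWT as control. The unpaired Student's test over windows takes windows as replicates, leaves both medians as they are and says nothing of the spread between libraries. Leaving out 1 library gave 1.10 to 1.11 for the pericentric and -0.25 to -0.23 for the arm median.

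The 5 pericentric windows lower by limma were 25 at an adjusted p of 0.05, 3 with a pseudocount of 0.1 RPM, 1 with a mean of at least 5 RPM, 3 with the mutants alone, 3 when scaled and 0 with HWT as control (3 to 5 without 1 library). The 4 at most 0.5-fold were 0 with a pseudocount of 1 RPM or at least 5 RPM, and 8 at a ratio of 1.5. Of the arm windows, the 18 higher were 36 at 0.05 and 4 without the stretches at scaffold ends (10 to 12 without 1 library). The 160 lower were 480 at 0.05, 348 with a variance trend and 81 when scaled (59 to 76 without 1 library). The 7 arm windows of at least 2-fold were 14 at a ratio of 1.5, and the 1 at most 0.5-fold was 0 with a pseudocount of 1 RPM or at least 5 RPM and 87 at 1.5. The cause was not tested. HWT as control in limma and the omission of scaffold ends were chosen after seeing the data. For the 20 named windows, 109 of the values under other settings kept their side of the threshold and 11 lost it. No paired analysis was possible because the deposited averages carry no replicate numbers.

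Depth limits windows below about 5 RPM. With 2 libraries a genotype the exact test cannot go below 0.333, and limma takes a lone library to vary like the others.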
